A study of Mus musculus with 20 samples.

Results

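De novo lipogenesis is the route by which the liver turns surplus carbohydrate into fatty acids, and the results here concern 10 of its genes among the 22298 genes listed for each liver. The members were chosen by name: the enzymes ATP citrate lyase (Acly), acetyl-CoA synthetase (Acss2), malic enzyme (Me1), the acetyl-CoA carboxylases Acaca and Acacb, fatty acid synthase (Fasn), the elongase Elovl6 and the desaturase Scd1, the mitochondrial citrate carrier Slc25a1, and Srebf1, which encodes the transcription factor SREBP1. No measured value entered that choice, although results from these livers were already known when it was made.

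Livers came from 20 males of the Lepr db/db strain, whose leptin receptor is defective and which grow obese with diabetes. At 5 weeks of age each was injected in the tail vein with AAV8 carrying either a non-targeting shRNA (Vec) or 4 shRNAs against Pparg in one vector (shRNA). They were then gavaged daily for 4 weeks with vehicle (CMC-Na) or with 25 mg/kg benzbromarone (BBR), a uricosuric drug used against gout, and tissue was taken after a 6 h fast. The groups were thus Vec, Vec+BBR, shRNA and shRNA+BBR, with 5 mice and 5 libraries each. All were leptin-receptor deficient, none was lean, and none was without vector. No source used here states that the shRNA cassette was restricted to hepatocytes, and the libraries are of whole liver, in which fewer cells of a type and less RNA per cell cannot be told apart.

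In the pathway, citrate leaves the mitochondrion through Slc25a1 and is split by Acly into cytosolic acetyl-CoA, to which Acss2 adds acetyl-CoA made from acetate. The carboxylases turn it into malonyl-CoA, Fasn builds palmitate from it with NADPH that Me1 helps to supply, Elovl6 lengthens palmitate and Scd1 introduces the double bond of oleate. SREBP1 is made as a membrane-bound precursor, escorted by Scap and held back by the Insig proteins, and its cleaved form activates the enzyme genes, so the Srebf1 mRNA measured here is not the amount of active protein. Insulin and feeding are the best known stimuli of the program in liver.

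The total count per library lay between 17432904 and 25024099, with a median of 21409859.5, and 14266 to 15072 genes had at least one read. The 8 hepatocyte markers, albumin among them, summed to 91094 to 126247 CPM (counts scaled to a common library size with edgeR's TMM factors) in Vec+BBR and to 124295 to 157189 CPM in Vec. Of 8 adipocyte markers, only Plin1, which coats the fat cell's lipid droplet, was at or under the floor of 3 counts in all 4 groups, and 3 were abundant enough to be tested. Pparg, the targeted gene, measured 16.4, 20.1, 35.9, 19.4 and 32.1 CPM in the Vec mice and 7.31, 6.53, 5.96, 3.24 and 5.63 CPM in the shRNA mice, without overlap. It measured 34.8, 29.8, 28.0, 28.1 and 38.3 CPM in Vec+BBR, above the 11.4, 9.99, 21.8, 18.9 and 7.19 CPM of shRNA+BBR.

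Acly, Acaca, Fasn and Srebf1 all lie on chromosome 11 (GENCODE M21, GRCm38), and all 10 are protein-coding genes. Fasn (ENSMUSG00000025153) spans chr11:120805846-120824547 on the minus strand, Srebf1 (ENSMUSG00000020538) spans chr11:60199089-60222581 on the minus strand, Scd1 (ENSMUSG00000037071) spans chr19:44394455-44407879 on the minus strand, and Slc25a1 (ENSMUSG00000003528) spans chr16:17925223-17928219 on the minus strand. Srebf1 overlaps Rai1, Acaca overlaps Gm11437 and Acss2 overlaps Ggt7 and Gss on the opposite strand. Whether reads were counted by strand is not given in the sources used here, so reads of these partners cannot be told apart from the members' own.

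Sequence around annotated RefSeq starts was at hand for 9 of the 10 members, in 12 windows of 300 bases (250 before and 50 after the start, GRCm38.p6). Not all windows lie at the outer start of the gene. Those of Acaca (start at 84195438) and Acacb (114165518) lie inside GENCODE spans that begin at 84129672 and 114146535, so these windows may not be promoters. The sequences given here are the 250 bases before the start of Fasn, one of the members whose level varied most between mice, of Slc25a1, which varied least among the enzymes and the carrier in the vehicle group, and of Srebf1 at a pair of its starts, since the gene has 3 starts and one count. Capitals mark the letters CCAAT or, in Slc25a1, CACGTG (the E-box bound by USF and ChREBP family factors), on either strand. All are written 5′ to 3′ on the gene's strand, here the minus strand.
Fasn, chr11:120824548-120824797: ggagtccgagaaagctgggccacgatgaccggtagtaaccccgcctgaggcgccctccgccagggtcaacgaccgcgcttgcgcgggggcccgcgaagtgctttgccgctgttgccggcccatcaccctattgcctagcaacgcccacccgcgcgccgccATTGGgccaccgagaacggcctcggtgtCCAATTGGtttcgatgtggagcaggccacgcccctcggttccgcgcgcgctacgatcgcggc
Slc25a1, chr16:17928220-17928469: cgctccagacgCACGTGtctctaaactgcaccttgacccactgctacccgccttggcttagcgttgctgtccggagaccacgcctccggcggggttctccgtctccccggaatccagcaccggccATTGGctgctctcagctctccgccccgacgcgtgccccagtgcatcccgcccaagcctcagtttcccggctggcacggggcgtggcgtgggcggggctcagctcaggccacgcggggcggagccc
Srebf1, chr11:60220628-60220877: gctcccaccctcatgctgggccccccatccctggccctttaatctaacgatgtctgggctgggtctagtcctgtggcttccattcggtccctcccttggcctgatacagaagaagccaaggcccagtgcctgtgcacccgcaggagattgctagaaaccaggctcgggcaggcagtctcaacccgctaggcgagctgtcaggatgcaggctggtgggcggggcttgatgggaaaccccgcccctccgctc
Srebf1, chr11:60210472-60210721: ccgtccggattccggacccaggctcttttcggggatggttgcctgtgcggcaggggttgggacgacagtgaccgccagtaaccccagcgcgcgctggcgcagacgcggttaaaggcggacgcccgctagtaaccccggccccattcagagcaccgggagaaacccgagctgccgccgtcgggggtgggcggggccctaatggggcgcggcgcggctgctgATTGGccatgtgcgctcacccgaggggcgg

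The Fasn window held CCAAT in 3 places, starting at -90, -62 and -59, the latter 2 overlapping each other on opposite strands. CCAAT stood in 8 of the 12 windows, against 37.4% of 32851 windows in the whole table. The E-box CACGTG was found in 1 window, at -239 of Slc25a1, against 7.15% of all windows, and the GC box GGGCGG in 6, against 35.7%. The sterol regulatory element, searched as TCACNCCAC on both strands, was in 0 of the 12 windows and in 1.24% of all windows. These are matches of letters within short windows and say nothing of binding.

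Srebf1 was the only member that passed the test for the drug within either vector, and it fell, while the 9 enzyme and carrier genes had positive fold changes in both comparisons, none past the threshold. With the control vector the sign of Acly, Acss2 and Elovl6 depended on single livers: leaving out Vec replicate 1 gave -0.0069 for Acly and -0.0018 for Acss2, leaving out Vec replicate 2 or Vec+BBR replicate 3 gave -0.02 and -0.01 for Acly, and leaving out Vec replicate 4 gave -0.05 for Elovl6. Srebf1 measured 204, 191, 247, 232 and 221 CPM in the Vec mice and 137, 138, 159, 138 and 166 CPM in the Vec+BBR mice. Every treated mouse was below every vehicle mouse, and the log2 fold change was -0.57 (SE 0.19, 95% interval -0.96 to -0.18, edgeR quasi-likelihood adjusted p = 0.0444, n = 5 per group). Among all 12342 genes tested, 15.5% passed the adjusted p threshold of 0.05 in this comparison, 7.88% as lower, and 8.94% had groups that did not overlap.

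In the mice given the Pparg shRNA, Srebf1 measured 312, 203, 163, 134 and 175 CPM without BBR and 99.2, 119, 101, 179 and 90.7 CPM with it. All but one of the treated livers were below all of the untreated ones and replicate 4, at 179 CPM, was not, so the groups overlapped. The log2 fold change was -0.75 (SE 0.19, 95% interval -1.14 to -0.35, adjusted p = 0.0154), in a comparison in which 15.7% of genes were called, 7.28% as lower, and 11.4% had groups without overlap. The Srebf1 responses in the vectors differed by -0.18 on the log2 scale (95% interval -0.73 to 0.38, adjusted p = 0.746).

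The call for Srebf1 was less steady with the control vector than with the Pparg shRNA. With the control vector it passed in 14 of 28 other settings, with an adjusted p of 0.0061 to 0.110, and was lost when any single Vec or Vec+BBR library, or shRNA replicate 2, was left out. With the Pparg shRNA it passed in 27 of 28 and was lost without shRNA+BBR replicate 3 (adjusted p = 0.0516). The fold change was negative in all 28 settings of both comparisons.

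**Figure D1:**
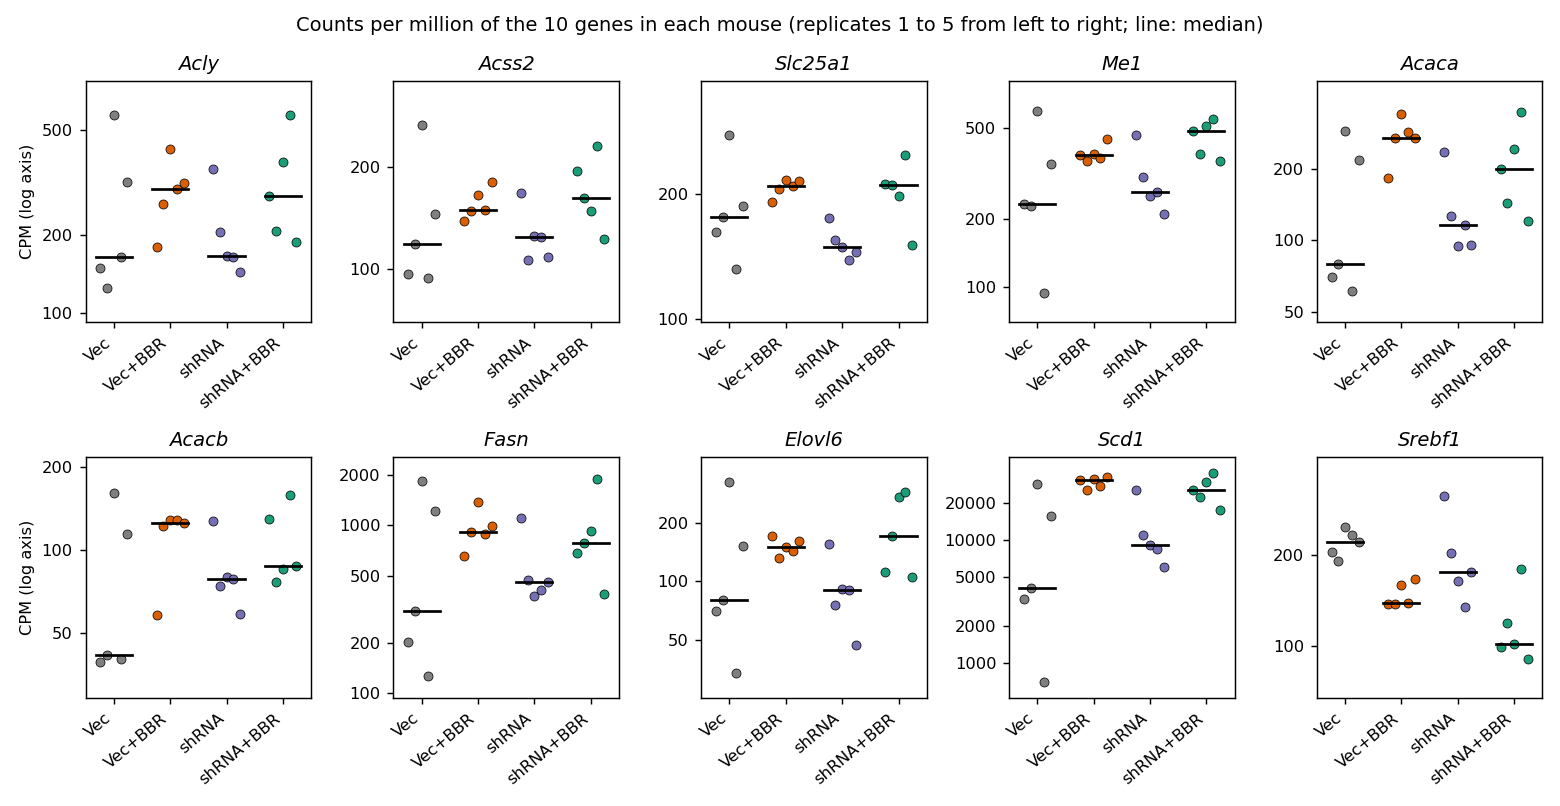
CPM (log axis) of the 10 genes in each of 20 livers, 1 point per mouse in the order of replicates 1 to 5, with the group median as a line. Scd1 ran from 707 to 28663 CPM among Vec mice but only from 25550 to 32401 CPM among Vec+BBR mice, and Srebf1 was lower in every Vec+BBR mouse than in every Vec mouse.

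Scd1, which makes monounsaturated fatty acids, was the most abundant member and the one with the widest spread. It measured 3353, 4112, 28663, 707 and 15653 CPM in the Vec mice, a range of 40.5-fold. In the Vec+BBR mice it measured 30603, 25550, 31554, 27369 and 32401 CPM, a range of 1.27-fold. The lowest Vec mouse was replicate 4, and the highest, replicate 3, reached into the range of the treated mice, so the groups overlapped. The log2 fold change was 1.49 (SE 0.59, 95% interval 0.26 to 2.73) and did not pass (adjusted p = 0.0918).

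With the Pparg shRNA, Scd1 measured 25389, 10943, 9117, 8515 and 6080 CPM without BBR and 25652, 22436, 29421, 35181 and 17652 CPM with it. A single untreated mouse, replicate 1, reached the treated range. The log2 fold change was 1.12 (SE 0.59, 95% interval -0.11 to 2.34, adjusted p = 0.188), and it differed from that with the control vector by -0.37 (95% interval -2.08 to 1.34).

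Fasn, which builds palmitate, measured 201, 307, 1819, 127 and 1207 CPM in Vec and 655, 914, 1380, 880 and 984 CPM in Vec+BBR. Treated livers sat inside the range of the vehicle livers, and the log2 fold change of 0.39 (95% interval -0.75 to 1.54, adjusted p = 0.682) did not pass. Fasn measured 1100, 471, 379, 413 and 459 CPM in shRNA and 679, 785, 923, 1892 and 392 CPM in shRNA+BBR. Here again the groups overlapped, with a log2 fold change of 0.73 (95% interval -0.42 to 1.88, adjusted p = 0.369).

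Acaca, the carboxylase that supplies malonyl-CoA for synthesis, measured 70.2, 79.4, 288, 60.9 and 217 CPM in Vec and 183, 269, 339, 286 and 269 CPM in Vec+BBR. Replicates 3 and 5 of Vec were within the treated range and the other Vec mice were below it. The log2 fold change was 0.91 (SE 0.38, 95% interval 0.11 to 1.71, adjusted p = 0.113) with the control vector and 0.65 (95% interval -0.14 to 1.45, adjusted p = 0.237) with the Pparg shRNA. Acacb, the carboxylase whose malonyl-CoA restrains fatty acid oxidation, ranged from 39.3 to 162 CPM in Vec and from 58.4 to 129 CPM in Vec+BBR. In the shRNA mice it ranged from 58.5 to 128 CPM, and in the shRNA+BBR mice from 76.9 to 158 CPM. It was the member with the lowest median FPKM (counts scaled by gene length and library size, a level per length) in all 4 groups.

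Slc25a1, the citrate carrier, varied less in Vec than the enzymes, although its SD of 0.39 log2 units there was larger than that of 74.7% of genes. It measured 162, 176, 279, 132 and 188 CPM in Vec and 192, 206, 217, 210 and 215 CPM in Vec+BBR. In shRNA it measured 176, 155, 149, 138 and 145 CPM, and in shRNA+BBR 212, 211, 198, 249 and 151 CPM. With the Pparg shRNA 4 of 5 treated mice were above all untreated mice, and the log2 fold change of 0.42 (SE 0.15, 95% interval 0.11 to 0.73) had an adjusted p of 0.0583. With the control vector the log2 fold change was 0.15 (95% interval -0.16 to 0.46, adjusted p = 0.536).

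Elovl6, the elongase, measured 70.1, 79.4, 323, 33.8 and 152 CPM in Vec and 170, 131, 150, 142 and 162 CPM in Vec+BBR. In shRNA it measured 155, 75.4, 91.0, 90.0 and 46.6 CPM, against 111, 171, 270, 287 and 104 CPM in shRNA+BBR. Only shRNA replicate 1 lay within the treated range of that pair. The log2 fold change was 0.20 (adjusted p = 0.802) with the control vector and 1.04 (SE 0.43, 95% interval 0.14 to 1.95, adjusted p = 0.0990) with the Pparg shRNA, a difference of 0.85 (95% interval -0.42 to 2.11).

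Me1, which yields NADPH, measured 231, 228, 593, 95.1 and 348 CPM in Vec and 380, 356, 383, 368 and 448 CPM in Vec+BBR. Replicate 3 of Vec lay above all treated mice and the other Vec mice lay below them. The log2 fold change was 0.37 (adjusted p = 0.441) with the control vector and 0.61 (adjusted p = 0.162) with the Pparg shRNA. Acly, which splits citrate, ranged from 125 to 572 CPM in Vec and from 178 to 426 CPM in Vec+BBR, with a log2 fold change of 0.16 (adjusted p = 0.825). Acss2, which activates acetate, ranged from 94.5 to 264 CPM in Vec and from 139 to 181 CPM in Vec+BBR, with a log2 fold change of 0.12 (adjusted p = 0.761). With the Pparg shRNA the values were 0.65 (adjusted p = 0.237) for Acly and 0.44 (adjusted p = 0.174) for Acss2.

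Over the 10 members the median log2 fold change was 0.28 with the control vector and 0.63 with the Pparg shRNA, against -0.0050 and 0.0080 over all genes tested. At an unadjusted p under 0.05 there were 3 members in each comparison, Srebf1, Scd1 and Acaca in the first and Srebf1, Slc25a1 and Elovl6 in the second. Of all 12342 genes tested, 3730 and 4102 were under that value, so 3 of 10 is near the share of all genes. For a difference between the vectors in the response to BBR, 0 members were called by edgeR, 0 were at an unadjusted p under 0.05 and 0 were called by DESeq2 or limma-voom. Only 18 genes, 0.146% of those tested, were called for that difference, and 2281 of 12342 were at an unadjusted p under 0.05.

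**Figure D2:**
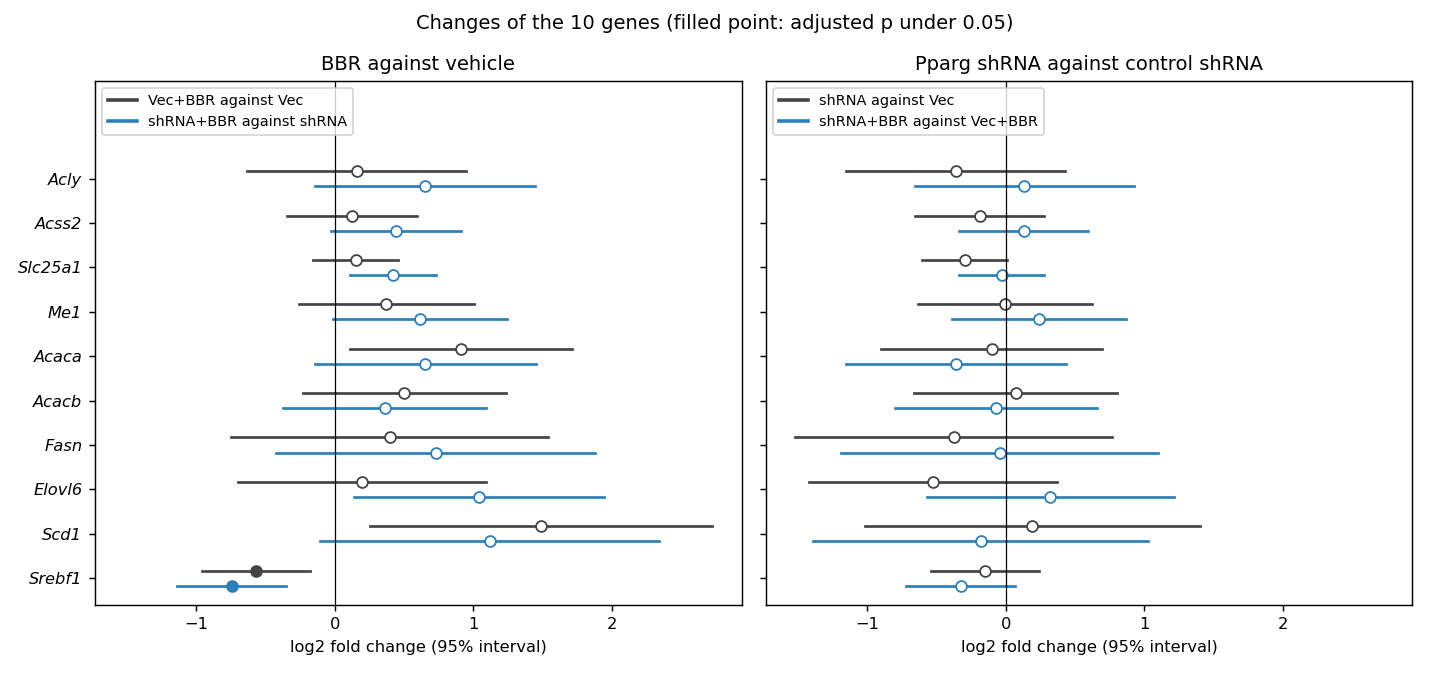
Log2 fold changes of the 10 genes with 95% intervals from the fit over all 4 groups, for BBR against vehicle on the left and for the Pparg shRNA against the control shRNA on the right, with filled points where the adjusted p was under 0.05. The filled points are both Srebf1, at -0.57 and -0.75, and the intervals of the enzymes are wide, that of Scd1 with the control vector running from 0.26 to 2.73.

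To bring all 20 livers to bear on the drug, the mean of both BBR responses was also tested in the same fit, a comparison added after the data had been seen. In it Srebf1 fell by 0.66 on the log2 scale (SE 0.13, adjusted p = 0.00138). Scd1 rose by 1.30 (SE 0.42, adjusted p = 0.0252), Acaca rose by 0.78 (SE 0.27, adjusted p = 0.0372) and Slc25a1 rose by 0.28 (SE 0.10, adjusted p = 0.0481). These 4 of 10 members compare with 27.3% of all genes called, 13.9% as higher and 13.4% as lower. Srebf1 and Scd1 passed in 27 of 27 other settings, Acaca in 13 and Slc25a1 in 7, and the remaining 6 members had adjusted p values from 0.0927 (Me1) to 0.299 (Fasn).

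Single vehicle livers weighed on these values in both directions. With Vec replicate 3 left out, Vec+BBR exceeded Vec by a log2 fold change of 2.30 for Scd1 (edgeR adjusted p = 0.00740), 1.32 for Acaca (adjusted p = 0.0159) and 0.77 for Me1 (adjusted p = 0.0433), all 3 then called. Srebf1 was at -0.53 (adjusted p = 0.0675) and no longer passed. Leaving out Vec replicate 4 instead lowered the values of Vec+BBR against Vec, to 0.12 for Fasn, 0.14 for Me1, 0.05 for Slc25a1 and 1.19 for Scd1, none of them called. Leaving out Vec replicate 1 or 2 lowered Fasn to 0.14 or 0.20, and leaving out Vec replicate 5 raised it to 0.65. Fasn in shRNA+BBR against shRNA was at 1.12 without shRNA replicate 1 and at 0.30 without shRNA+BBR replicate 4, again uncalled. For the mean of both BBR responses, 9 members passed without Vec replicate 3, all but Fasn (0.89, adjusted p = 0.0667). The share of all genes called without that library is not given here, and with all libraries it was 27.3%. Without shRNA+BBR replicate 4, Acaca (edgeR adjusted p = 0.0820) and Slc25a1 (edgeR adjusted p = 0.0962) no longer passed for that mean. Nothing in the labels sets Vec replicate 3 apart, and its library held 21708082 counts with 10.8% from mitochondrial genes, within the range of 9.14% to 16.2% over the 20 libraries.

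The knockdown of Pparg gave no call among the members. In shRNA against Vec, 0 of 10 passed by edgeR, 0 were at an unadjusted p under 0.05 and 0 passed by DESeq2 or limma-voom, with 13.2% of all genes called and 8.96% without overlap between groups. Of all 12342 genes tested, 3510 were at an unadjusted p under 0.05 there. The log2 fold changes ran from -0.52 (Elovl6, 95% interval -1.42 to 0.37) to 0.19 (Scd1, 95% interval -1.02 to 1.40), with a median of -0.17 against -0.0092 over all genes. Slc25a1 had the smallest adjusted p (0.194) with a log2 fold change of -0.30.

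In shRNA+BBR against Vec+BBR, 0 of 10 passed by any of the same tools and 0 were at an unadjusted p under 0.05, with 8.13% of all genes called and 8.48% without overlap. Of all 12342 genes tested, 3046 were at an unadjusted p under 0.05 there. Srebf1 came nearest, at -0.33 (95% interval -0.72 to 0.07, adjusted p = 0.297), and Fasn was at -0.04 (95% interval -1.19 to 1.10). The intervals of Scd1, Fasn and Elovl6 in these comparisons leave room for changes of more than 1 log2 unit. For the mean of both knockdown effects, also added after the data had been seen, 18.8% of genes and 0 members were called, with Srebf1 at -0.24 (95% interval -0.51 to 0.04). Without shRNA replicate 1, Srebf1 alone was called as lower in that mean.

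The spread between mice of one group was itself a feature of these genes. The median SD of log2 CPM over the 10 members was 0.97 in Vec, against 0.25 over all genes tested, and 9 of the 10 were above the median gene. It was 0.15 in Vec+BBR against 0.19 over all genes, with 4 of 10 above. It was 0.49 against 0.17 in shRNA and 0.42 against 0.23 in shRNA+BBR, with 9 and 10 of the members above. Whether the spread differed between groups was not tested.

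Scd1 had an SD of 2.08 log2 units among Vec mice, larger than that of 99.7% of genes, and of 0.15 among Vec+BBR mice, larger than that of 35.4% of genes. Fasn had an SD of 1.66 log2 units in Vec and 0.39 in Vec+BBR. Srebf1 went against the enzymes, with an SD of 0.15 in Vec, larger than that of only 18.8% of genes, and of 0.46 in shRNA. In Vec, the mice with 707 and 28663 CPM of Scd1 thus had Srebf1 at 232 and 247 CPM.

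**Figure D3:**
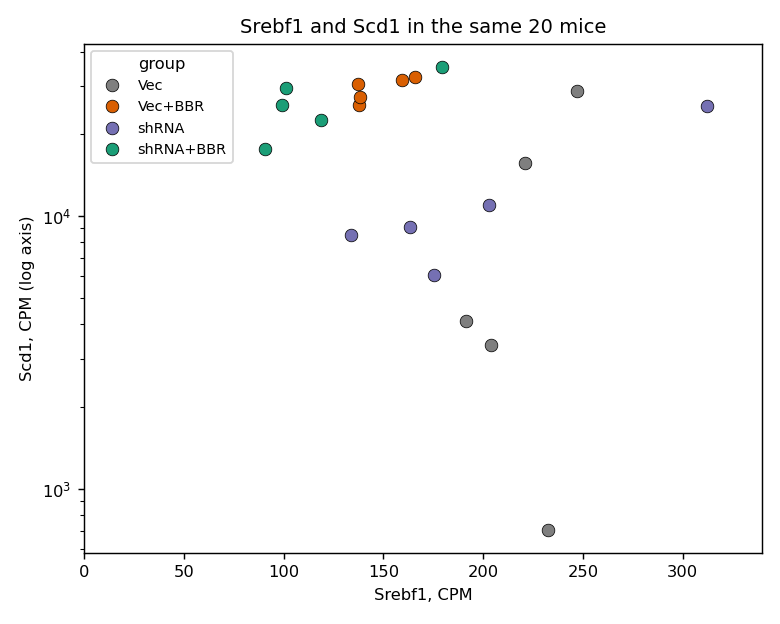
Srebf1 (linear axis) against Scd1 (log axis) in CPM, 1 point per liver, coloured by group. The Vec livers lie in a narrow band of Srebf1 from 191 to 247 CPM while Scd1 ranges from 707 to 28663 CPM, and the BBR-treated livers lie at high Scd1, from 17652 to 35181 CPM, with Srebf1 between 90.7 and 179 CPM.

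The same liver tended to be highest for every member. Vec replicate 3, shRNA replicate 1 and shRNA+BBR replicate 4 each had the highest level of every one of the 10 members in their group, with median deviations from the group mean of 1.30, 0.79 and 0.63 on the log2 scale. Across all genes the median deviation in these libraries was 0.0051, -2.5e-05 and 0.016. Vec replicate 4 was lowest for 7 members and shRNA+BBR replicate 5 for 9. In Vec+BBR the order was mixed, with replicate 3 highest for 5 members and replicate 5 for 4.

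**Figure D4:**
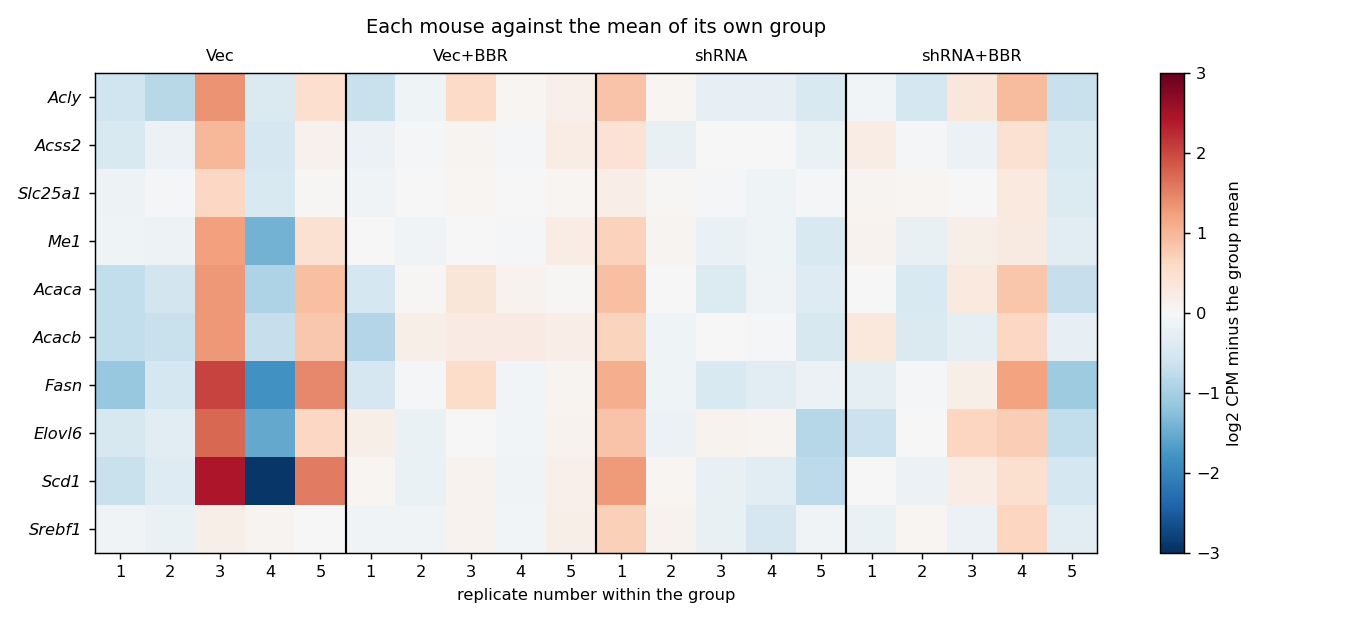
Deviation of each liver from the mean of its own group, in log2 CPM, with genes in rows and the 5 replicates of each group in columns (red above, blue below the group mean). Columns of a single colour mark livers in which the members moved together, such as Vec replicate 3, whose median deviation was 1.30, and the Vec+BBR block is pale.

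With the group means removed, the 36 pairs among the 9 enzyme and carrier genes had Pearson correlations of 0.70 to 0.98 over the 20 libraries, with a median of 0.86, where the median over all pairs of tested genes was -0.0010. These are descriptions, since the values of a pair share the library and its scaling. Scd1 and Me1 had r = 0.98 (Spearman's rho 0.94), and Fasn and Acaca had r = 0.96 (rho 0.95). Leaving out Vec replicates 3 and 4, which lie farthest out, r was 0.92 and 0.95 for these pairs.

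Srebf1 followed the enzymes less closely. Its correlations with the other 9 ran from 0.36 to 0.66 with the group means removed, with a median of 0.53, and from -0.33 to 0.12 on the values as measured. For Srebf1 and Fasn, r was 0.55 (rho 0.64) with group means removed, and 0.39 without shRNA replicate 1 and shRNA+BBR replicate 4. For Srebf1 and Scd1 as measured, r was -0.33 (rho -0.27), and with group means removed it was 0.36 (rho 0.59).

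Outside the 10 members, genes whose profile over the 20 libraries was most like the members' mean, among 9785 genes compared, included Pgd (r = 0.96), Tkt (r = 0.93), Tubb2a (r = 0.92) and Fdps (r = 0.92). Pgd and Tkt are enzymes of the pentose phosphate pathway, and Fdps makes farnesyl diphosphate for cholesterol. With the group means removed the list was Pgd (0.97), Acsl5 (0.94), Tkt (0.94), Cyb5r3 (0.93) and Fdps (0.93). Those most like Srebf1 as measured were Recql5 (0.86), Coro7 (0.85) and Mlxipl (0.85), the last encoding ChREBP, the carbohydrate-responsive regulator of lipogenesis. With the group means removed they were Slc20a2 (0.82), Ddx17 (0.82) and Ralgps1 (0.81).

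Per length, Scd1 was the highest member in every group, with a median FPKM of 744 in Vec, 6059 in Vec+BBR, 1891 in shRNA and 5471 in shRNA+BBR. Its range was clear of the next member in all groups but Vec, where its lowest mouse (146 FPKM) lay under the highest values of several others. Slc25a1 and Me1 took the next places in every group, with overlapping ranges, at 92.3 and 65.9 FPKM in Vec and 131 and 119 FPKM in Vec+BBR. Fasn stood at rank 7 in Vec (30.6 FPKM) and at rank 4 in the other groups (114, 53.5 and 86.5 FPKM), always overlapping its neighbours. Srebf1 stood at rank 4 in Vec (55.6 FPKM), rank 7 in Vec+BBR (40.7 FPKM), rank 5 in shRNA (47.0 FPKM) and rank 8 in shRNA+BBR (26.3 FPKM). In Vec no pair of neighbours was separated by its ranges.

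Of 9 genes of the machinery that processes SREBP, 0 passed in Vec+BBR against Vec by edgeR and 0 by DESeq2, with 2 at an unadjusted p under 0.05 and 15.5% of all genes called. In shRNA+BBR against shRNA 0 passed by edgeR and 0 by DESeq2, with 3 at an unadjusted p under 0.05 and 15.7% of all genes called. Of all 12342 genes tested, 3730 and 4102 were at an unadjusted p under 0.05 in these comparisons. For the mean of both BBR responses, Scap (the escort protein, -0.29) and Rnf139 (a ubiquitin ligase, -0.20) fell, against 13.4% of all genes called lower. Srebf2, which encodes the regulator of cholesterol synthesis, had log2 fold changes of 0.00051 and -0.32 that did not pass. Between the vectors, 2 of the 9 were called in shRNA against Vec (13.2% of all genes), where Mbtps2, the site-2 protease, rose by 0.70 and Mbtps1, the site-1 protease, fell by 0.28. Mbtps2 alone was called in shRNA+BBR against Vec+BBR, rising by 0.47, against 8.13% of all genes called. For the mean of both knockdown effects 4 of 9 were called against 18.8% of all genes, with Mbtps2 (0.58), Insig2 (0.56) and Rnf139 (0.21) higher and Mbtps1 (-0.23) lower. Insig1, itself a known SREBP target, was at 0.17 and -0.05 with BBR without passing.

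Of 12 other regulators of lipogenesis, 2 were called in Vec+BBR against Vec and 4 in shRNA+BBR against shRNA, where 15.5% and 15.7% of all genes were. Nr1h2 (LXR beta, -0.25) and Usf1 (-0.34) fell with BBR in the control vector. With the Pparg shRNA, Mlxipl (ChREBP, -0.36), Nr1h2 (-0.25) and Rxra (the partner of LXR and PPAR, -0.43) fell and Pparg rose by 1.28. Mlxipl, at -0.34 in the control vector, did not pass there. Nr1h3 (LXR alpha) was at -0.06 and 0.07 and did not pass. Usf2 fell with the Pparg shRNA, by 0.68 without BBR and by 0.50 with it. Thrsp, a known lipogenic cofactor, was at -0.08 and 0.08 without passing. With group means removed, the correlations of the 12 regulators with the members' mean ran from -0.87 (Nr1h2) to 0.87 (Thrsp), with Pparg at 0.70, Usf1 at -0.68 and Mlxipl at 0.42.

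The genes that supply carbon and NADPH, 12 in number, gave 2 higher and 1 lower in Vec+BBR against Vec (15.5% of all genes called), with a list median of 0.24. Pdha1 (pyruvate dehydrogenase, 0.41) and Taldo1 (transaldolase, 0.44) rose and Mdh1 (malate dehydrogenase, -0.41) fell. In shRNA+BBR against shRNA, G6pdx (0.66) and Taldo1 (0.63) rose, with a median of 0.38 and 8.37% of all genes called higher. For the mean of both responses 6 were higher and 1 lower, with Pgd at 0.54 and Tkt at 0.38 among those called. Over all genes 13.9% were called higher and 13.4% lower in that mean. Pyruvate kinase (Pklr, 0.24 and 0.44) did not pass in either vector.

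Cholesterol synthesis, which SREBP2 controls, gave 6 of 19 genes higher and 0 lower in Vec+BBR against Vec, where 7.58% of all genes were called higher. All 19 fold changes were positive, with a median of 0.62. Those called higher included Idi1 (1.72), Sqle (1.72), Hmgcs1 (1.52), Cyp51 (1.01) and Mvk (0.59). In shRNA+BBR against shRNA only 2 of 19 were called, Idi1 (1.31) and Cyp51 (1.10), against 8.37% of all genes called higher. The median there was 0.38. With group means removed, the correlations of these 19 genes with the members' mean had a median of 0.76 and ran from 0.51 to 0.93.

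Paralogs of the members and the steps after palmitate shared some of the direction. Of 9 paralogs tested, Elovl1 (0.23), Elovl7 (3.30), Scd2 (1.01) and Slc25a10 (0.45) rose in Vec+BBR against Vec, where 7.58% of all genes were called higher. With the Pparg shRNA 6 rose, with Elovl5 at 1.40 and Elovl3 at 0.95 in addition to those named, against 8.37% of all genes called higher. Elovl7 was scarce, at no more than 0.588 CPM in Vec and 1.15 to 3.84 CPM in Vec+BBR. In shRNA against Vec, Elovl1 (-0.54), Elovl3 (-1.09), Elovl5 (-1.38) and Slc25a10 (-0.50) fell, against 7.91% of all genes called lower. Of 11 genes after palmitate, Acsl3 (0.69) rose and Agpat2 (-0.57) fell in Vec+BBR against Vec, and Acsl1 (0.45) rose in shRNA+BBR against shRNA. These 2 and 1 of 11 compare with 15.5% and 15.7% of all genes. The diacylglycerol acyltransferases Dgat1 and Dgat2 were at -0.16 and -0.07 in the control vector without passing.

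Of 9 regulators of acetyl-CoA carboxylase, Hlcs (which attaches its biotin, 0.76) rose and Stk11 (the kinase LKB1, -0.38) fell in Vec+BBR against Vec, with 15.5% of all genes called there. In shRNA+BBR against shRNA 0 passed by edgeR or DESeq2, with 0 at an unadjusted p under 0.05. Of all 12342 genes tested, 15.7% were called there and 4102 were at an unadjusted p under 0.05. The catalytic AMPK subunits Prkaa1 (0.22) and Prkaa2 (0.16) did not pass. Fasting genes were counted because lipogenesis depends on the fed state. Of 9, G6pc (-0.77), Pck1 (-0.65) and Angptl4 (-0.30) fell in Vec+BBR against Vec, where 7.88% of all genes were called lower. Pck1, a gluconeogenic enzyme, measured 3935, 4084, 2489, 4529 and 2577 CPM in the Vec mice, lowest in replicates 3 and 5, where the enzymes and the carrier were highest. Its correlation with the members' mean was -0.89 with group means removed. Of 12 clock genes tested, Cry1 (-0.57) and Per3 (-0.48) fell in Vec+BBR against Vec, against 15.5% of all genes called, and their median was -0.33. In shRNA+BBR against shRNA, Clock (0.49) rose and Cry2 (-0.53), Per1 (-0.57), Per3 (-0.54) and Tef (-0.46) fell, against 15.7% of all genes called. Between the vectors 4 of the 12 were called in shRNA against Vec (13.2% of all genes) and in shRNA+BBR against Vec+BBR (8.13%). In these comparisons Arntl (1.10 and 1.57) and Cry1 (0.52 and 1.09) rose and Dbp (-1.34 and -1.35) and Nr1d1 (-1.07 and -1.67) fell. The part of feeding state and time of day in the members' values was not tested.

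Summed levels of markers of other liver cells also stood apart between groups with and without BBR in some lists, although a sum follows its most abundant genes. The 7 stellate cell markers summed to 161 to 300 CPM (lowest and highest library) in Vec and 336 to 359 CPM in Vec+BBR, and the 5 cholangiocyte markers to 24.0 to 45.3 CPM and 50.3 to 96.6 CPM. The 6 endothelial markers summed to 72.5 to 95.7 CPM and 91.6 to 126 CPM, and the 8 macrophage markers to 121 to 329 CPM and 159 to 255 CPM. In the shRNA mice the stellate sums were 201 to 270 CPM without BBR and 267 to 392 CPM with it, and the cholangiocyte sums 25.9 to 34.4 CPM and 31.0 to 87.7 CPM. The endothelial sums there were not higher with BBR, at 106 to 138 CPM without it and 90.8 to 134 CPM with it. The macrophage sums there were 171 to 227 CPM and 181 to 271 CPM. By gene, 3 of 7 stellate, 3 of 6 endothelial and 1 of 5 cholangiocyte markers (Spp1, 1.00) were called higher in Vec+BBR against Vec, and 0 lower. Of the 8 macrophage markers, Cd68 (0.64) rose and Marco (-3.03) and Timd4 (-0.78) fell. In shRNA+BBR against shRNA 3 stellate, 1 endothelial, 1 cholangiocyte and 1 macrophage marker were called higher, and 2 endothelial markers lower. Over all genes 15.5% and 15.7% were called. Of the 8 hepatocyte markers, 4 fell in Vec+BBR against Vec and 2 in shRNA+BBR against shRNA, where 7.88% and 7.28% of all genes were called lower. The adipocyte list summed to 639 to 1798 CPM in Vec and 999 to 1973 CPM in Vec+BBR. Of its 3 members tested, Cfd (complement factor D, 3.22) and Cidea (a lipid droplet protein that fatty hepatocytes also make, 3.63) rose, against 7.58% of all genes called higher. Car3 (0.17) did not pass there. In shRNA+BBR against shRNA all 3 rose (Cfd 5.28, Cidea 5.14, Car3 0.76), against 8.37% of all genes called higher. The part of all these marker genes and their cells in the members' values was not tested.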

How the data were processed

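RNA-seq libraries of whole liver (poly(A)-selected, sequenced on an Illumina NovaSeq, one library per mouse) were taken from 20 mice in 4 groups of 5, as the labels give them. The authors deposited estimated counts and FPKM per gene for each library. The labels name the mm10 build, while the aligner, the counting program and their versions are not given in the sources used here, nor is the treatment of reads shared by similar genes. FPKM values deposited by the authors served only to compare levels between genes.

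Estimated counts, of which 91.9% to 93.3% were already whole, were rounded. Genes with at least 10 counts in enough libraries for the smallest group and 15 in total (edgeR filterByExpr) were kept, 12342 in all, and all 10 members were among them. Libraries were scaled by TMM (factors 0.873 to 1.14), and a quasi-likelihood model with 1 mean per group was fitted over all 20 libraries (edgeR 4.0.16, R 4.3.3). P-values were adjusted over all genes by the Benjamini-Hochberg method with a threshold of 0.05, for 5 planned comparisons and 2 added after seeing the data. CPM values use the TMM-scaled totals. The 95% intervals are for differences between group means, with an SE that rests on the spread between mice, and are not ranges of single mice. DESeq2 1.42.0 and limma-voom 3.58.1 were alternatives, with other scalings, other filters, fits of 2 groups alone, a replicate block and each library left out in turn. The fit was tested on simulated counts first. The library type, as described, does not mark strand.

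The member list, the pathway and marker lists and the tests were chosen with earlier results of these data known. All 10 members were named whatever their values, and list genes were named where they passed or as the list's extremes, with some others chosen after their values were seen. A few genes of the lists are not reported here by name. Genes most like the members were ranked by Pearson's r with the mean of the members' standardized log2 CPM, among genes with a mean count of at least 50. Positions come from GENCODE M21, for which 22255 of 22298 identifiers matched, and the windows around starts from RefSeq. Depth limits none of the members, the lowest of which had 646 counts in its poorest library.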

Additional observations from a re-analysis of the deposited data

Results flagged for a closer look

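In 6 of 40 groups of 5 livers (10 members in 4 groups) 1 liver stood apart from the others by more than Dixon's 95% critical value of 0.71 for 5 samples. The ratios were taken on CPM, not on the log2 scale used for the spread above. For normally distributed values about 1 in 20 groups would exceed that value. CPM need not be normal and the members move together, so the 6 groups cannot be set against that rate. In 4 of the 6 it was shRNA replicate 1. There Fasn measured 1100 CPM, against 379 to 471 CPM in the other shRNA livers, Acaca 236 CPM (others 94.1 to 126), Acly 356 CPM (others 143 to 205) and Scd1 25389 CPM (others 6080 to 10943). These 4 values come from the same library and are not independent of each other. In Vec+BBR, Acacb was low in replicate 1, at 58.4 CPM against 123 to 129 CPM, and Me1 was high in replicate 5, at 448 CPM against 356 to 383 CPM. The Vec group, the widest of the 4, had no such liver, since replicates 3 and 5 were both high. Without shRNA replicate 1, the calls for the members in shRNA+BBR against shRNA still consisted of Srebf1 alone.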

How the results depend on the processing

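Of 1930 member values recomputed under 28 other settings, 0 reversed a call, 49 lost and 24 gained one, and 80 changed sign with no call on either side. In Vec+BBR against Vec, where 1 member passed, 2 passed with DESeq2 (Srebf1 and Scd1), 3 with limma-voom (with Acaca), and 0 with library totals alone, without a filter or with the replicate block. Leaving out 1 library gave 0 to 3 members there, 0 to 3 in shRNA+BBR against shRNA, 2 to 9 for the mean of the BBR responses and 0 to 1 for the mean of the knockdown effects. In shRNA+BBR against shRNA, 2 members passed with DESeq2 and with 10 counts required in every library, and 5 in a fit of the 2 groups alone (Slc25a1, Me1, Scd1 and Elovl6 higher, Srebf1 lower). For the mean of the BBR responses 2 members passed with the replicate block, Srebf1 and Scd1. Over all genes, calls in Vec+BBR against Vec were 1908, and 1178 in a fit of those 2 groups, and for the difference of the BBR responses 18, with 330 by DESeq2, 11 by limma-voom and 30 with library totals alone. With 1 library left out, counts ran from 1237 to 2395 (Vec+BBR against Vec), 1015 to 2284 (shRNA against Vec), 538 to 1217 (shRNA+BBR against Vec+BBR), 661 to 2527 (shRNA+BBR against shRNA) and 5 to 122 (the difference). The libraries that moved a member count are named in the report for Srebf1 and for Vec replicate 3, and the causes were not tested. The replicate numbers were not shown to pair the mice: same-numbered libraries correlated over 0.1 in at most 3 of 5 pairs of any 2 groups, and the replicate block gave 1747, 1495, 940 and 1819 calls in the 4 comparisons of groups.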
